A study of Mus musculus with 9 samples.

Results

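The comparison described here set whole lung of C57BL/6 mice kept in hypoxia against whole lung of the same strain kept in normoxia, with RNA measured across all expressed genes. The 6 samples compared, of 9 in the series, were chosen by their titles: replicates 2, 3 and 5 of wild-type normoxia and replicates 1, 2 and 5 of wild-type hypoxia. Per the labels, the hypoxic mice lived for 3 weeks in a chamber with 10% oxygen, a standard way to raise pulmonary arterial pressure in rodents. The labels describe the other group only as normoxia. The other 3 samples came from hypoxic mice given parathyroid hormone (PTH) at 40 µg/kg per day. They entered the model that estimates the spread between samples, and some of their values are given beside those of hypoxia alone. All groups were wild type, and the labels give neither the age of the mice nor which samples, if any, belong to the saline-injected sham group that they mention. Nor do they say whether samples are separate animals, and p-values therefore reflect only how far these samples spread. Pressures and heart weights were not analysed here.

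In chronic hypoxia the small pulmonary arteries constrict and remodel: smooth muscle and adventitial fibroblasts lay down matrix, pericytes proliferate, and capillary and arterial endothelium changes its junctions, its growth factor signals and its vasoactive receptors. Cells sense low oxygen largely through the hypoxia-inducible factors, transcription factors whose alpha subunits are degraded when oxygen is plentiful and which bind a short DNA motif near genes of glycolysis, angiogenesis and mitochondrial adjustment. The lung has 2 kinds of capillary endothelium, general capillary cells, which express Plvap and can divide, and aerocytes, which express Car4 and Ednrb and line the gas-exchange surface.

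The 6 libraries held 40234030 to 58391086 counts, and 19640 genes passed the filter on low counts. Lung genes were abundant in every library, with surfactant protein gene Sftpc at 10450.0 to 13054 CPM (read counts scaled to a library's total), the club cell gene Scgb1a1 at 21222 to 30396 CPM and the alveolar type 1 gene Ager at 1774 to 2016 CPM, while the liver gene Alb stood at 0.0867 to 0.976 CPM and the skeletal muscle gene Acta1 at 0.0345 to 2.76 CPM. The libraries of each group differed among themselves in 2 ways that the labels do not name. The score over clock genes, in which a high value marks libraries where Dbp was high and Arntl low, was 2.40, 2.67 and -2.47 in normoxia and 3.22, 2.92 and -2.09 in hypoxia, so that replicate 5 of each group stood apart from the others. Dbp ranged from 6.85 to 316 CPM and Arntl from 1.77 to 50.1 CPM. The score over heart muscle and fat genes was 1.28, -0.25 and -0.83 in normoxia and -0.59, 1.71 and 1.98 in hypoxia, high in normoxia 2 and in hypoxia 2 and 5. Myh6, a myosin heavy chain of heart muscle, ranged from 107 to 758 CPM and Adipoq, the fat cell hormone adiponectin, from 0.346 to 17.4 CPM. Whole lung was sequenced, so fewer cells of a type and less RNA per cell cannot be told apart in any result below.

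**Figure D1:**
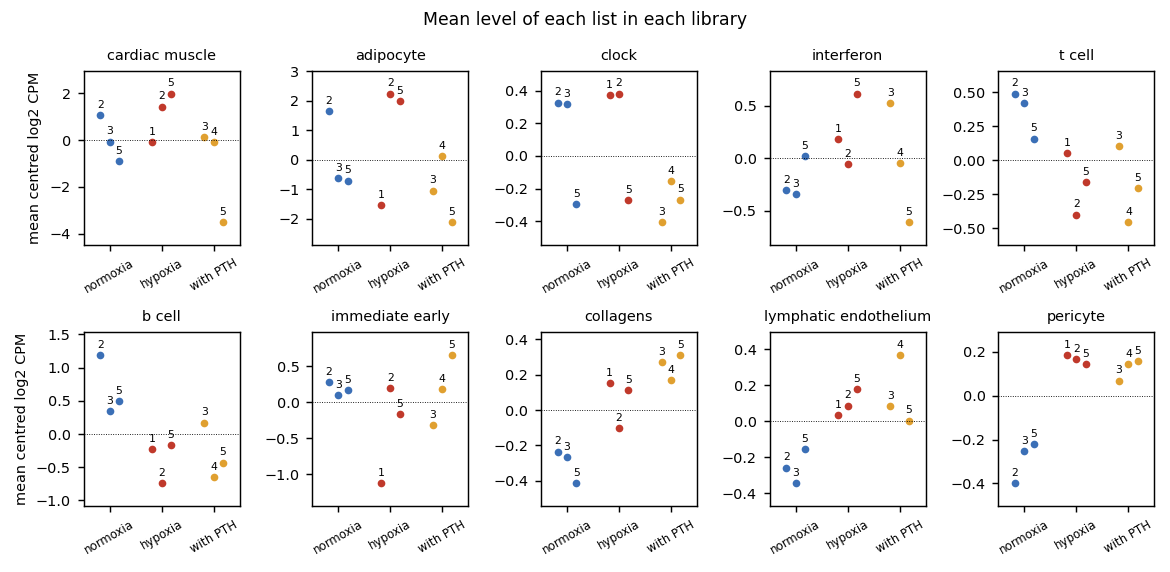
Mean level of 10 gene lists in each of the 9 libraries, as the mean over list members of log2 CPM centred on the mean of the 9 libraries (y axis), by group (x axis), with the replicate number above each point. The heart muscle and fat lists split each group, the clock list sets replicate 5 of normoxia and hypoxia apart, and for the pericyte, collagen and lymphatic endothelium lists the 3 hypoxia libraries all stand above the 3 normoxia libraries.

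Chronic hypoxia changed 112 genes, 81 higher and 31 lower, at an adjusted p under 0.05 in edgeR's quasi-likelihood test with Benjamini-Hochberg adjustment over all genes tested. That is 0.57% of the genes tested, with 0.412% called higher and 0.158% called lower. The change was at least 2-fold, a log2 fold change of 1 or more in size, for 60 of the 112. Without adjustment, 1266 genes were higher and 1055 lower at a p under 0.05. The 3 hypoxia libraries lay wholly above or wholly below the 3 normoxia libraries for 17.1% of all genes, 8.56% above and 8.57% below. The counts given for gene lists below are to be read beside these shares. Over all genes tested the median log2 fold change was -0.0015, and 49.7% of genes lay above 0. The count of calls varied with the libraries used: it was 50 without normoxia 3, 52 without hypoxia 1 and 70 without hypoxia 5. In all, 41 of the 112 genes, 27 higher and 14 lower, were called whichever of the 9 libraries was left out. Fits on fewer libraries can call fewer genes for that reason alone, which was not separated from the choice of library. The count was 64 without both replicates 5, whose clock scores stood apart. Among libraries with a low muscle and fat score (normoxia 3 and 5 against hypoxia 1) it was 13, and among those with a high one (normoxia 2 against hypoxia 2 and 5) it was 3. None of the 112 changed direction under any of the settings tried. Their groups did not overlap, so fits on fewer of these libraries could hardly reverse them.

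**Figure D2:**
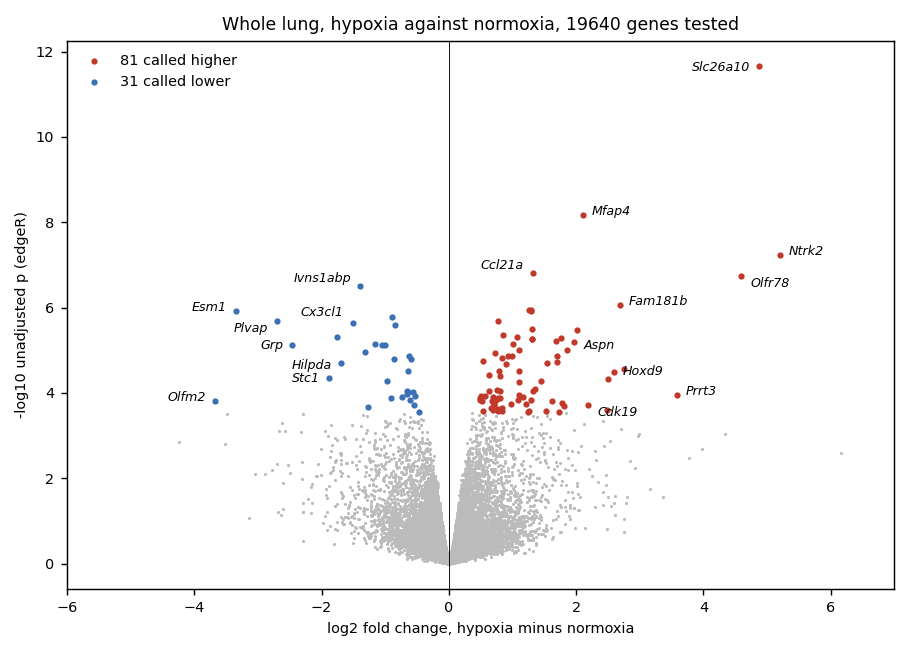
Log2 fold change of hypoxia minus normoxia (x axis) against -log10 of the unadjusted p of edgeR's quasi-likelihood test (y axis) for the 19640 genes tested, with the 81 genes called higher in red and the 31 called lower in blue. Slc26a10 has the smallest p, Ntrk2 the highest fold change among called genes, and Olfm2, Esm1 and Plvap the lowest.

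The highest rise was that of Ntrk2, which encodes TrkB, the receptor tyrosine kinase for brain-derived neurotrophic factor (chr13:58806569-59133970, plus strand, mm10). It stood at 6.18, 4.44 and 6.55 CPM in normoxia and 269, 173 and 187 CPM in hypoxia, values being given here and below in the order of replicates 2, 3 and 5 of normoxia and 1, 2 and 5 of hypoxia. The groups were far apart, with a log2 fold change of 5.20 (SE 0.32, adjusted p by edgeR 0.00038). Of the 14 neurotrophin ligands and receptors tested, Ntrk2 was called and the median was 0.31. The related gene Ntrk3, the receptor of neurotrophin-3, had a log2 fold change of 0.89 (adjusted p = 0.062), and Bdnf, the gene of the TrkB ligand, one of -0.24 (adjusted p = 0.54), with overlapping groups.

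Slc26a10, a member of the SLC26 family of anion transporters (chr10:127171393-127180645, minus strand), gave the smallest p of all genes. It stood at 2.25, 2.64 and 2.1 CPM in normoxia and 67.1, 68.8 and 69.8 CPM in hypoxia. The replicates differed little within a group, and the log2 fold change was 4.87 (SE 0.12, adjusted p by edgeR 4.2e-08). None of the other 7 family members tested was called, and the list median was 0.037. Slc26a10 overlaps B4galnt1, and reads of overlapping genes may be shared, since how strand was used in counting is not given in the sources used here. RNA of Olfr78, an olfactory-type receptor known from the oxygen-sensing cells of the mouse carotid body and from vascular smooth muscle (chr7:102738511-102759471, minus strand), was scarce in normoxia. It stood at 0.0751, 0.104 and 0.0867 CPM in normoxia and 2.33, 1.4 and 2.87 CPM in hypoxia, higher in every hypoxia library, with a log2 fold change of 4.59 (SE 0.36, adjusted p by edgeR 0.00071). Olfr78 overlaps Olfr560 on the same strand, so reads may be shared even where strand was used. Olfr560 had a log2 fold change of 4.33 (adjusted p by edgeR 0.079). The call of Olfr78 was lost on the deposited log2 TPM, whose floor is 1 TPM. So were calls of other genes named below, Prrt3, Hoxd9, Snph and Lrrc3b among them.

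Of the 9 rises that follow Olfr78 in size, predicted genes aside, 4 kept their call whichever library was left out. Fam181b stood at 1.65, 1.42 and 2.21 CPM in normoxia and 12.7, 7.6 and 13.6 CPM in hypoxia, with a log2 fold change of 2.69 (SE 0.25, adjusted p by edgeR 0.0021). Adam23, an ADAM protein without protease activity that takes part in cell adhesion, stood at 5.93, 5.56 and 5.9 CPM in normoxia and 20.3, 18.6 and 31.3 CPM in hypoxia. Its groups were well separated, with a log2 fold change of 2.01 (SE 0.21, adjusted p by edgeR 0.0036). Mfap4 and Aspn, the remaining 2, are matrix genes described below. Prrt3, with 0.144 ± 0.0629 CPM in normoxia and 1.73 ± 0.894 CPM in hypoxia, Hoxd9, a homeobox gene, with 0.32 ± 0.113 CPM in normoxia and 1.92 ± 0.607 CPM in hypoxia, Snph, which anchors mitochondria in axons, with 0.857 ± 0.161 CPM in normoxia and 4.83 ± 2.08 CPM in hypoxia, and Lrrc3b, with 0.338 ± 0.172 CPM in normoxia and 1.94 ± 0.616 CPM in hypoxia, were all low in normoxia (mean ± SD, n = 3). Their log2 fold changes were 3.59, 2.60, 2.50 and 2.49, with SEs of 0.58, 0.36, 0.36 and 0.45. Cdk19, a kinase of the Mediator complex, was abundant in both groups. It stood at 60.5, 58.5 and 64.4 CPM in normoxia and 389, 226 and 221 CPM in hypoxia, with hypoxia 1 above the others of its group, and a log2 fold change of 2.19 (SE 0.35, adjusted p by edgeR 0.039). In fits that left out 1 of the 9 libraries, calls were lost by Prrt3 in 5 such fits (up to 0.15), Hoxd9 without normoxia 2 or normoxia 3 (adjusted p up to 0.067), Snph in 3 such fits (up to 0.096), Lrrc3b in 8 such fits (up to 0.16) and Cdk19 in 7 such fits (up to 0.17).

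**Figure D3:**
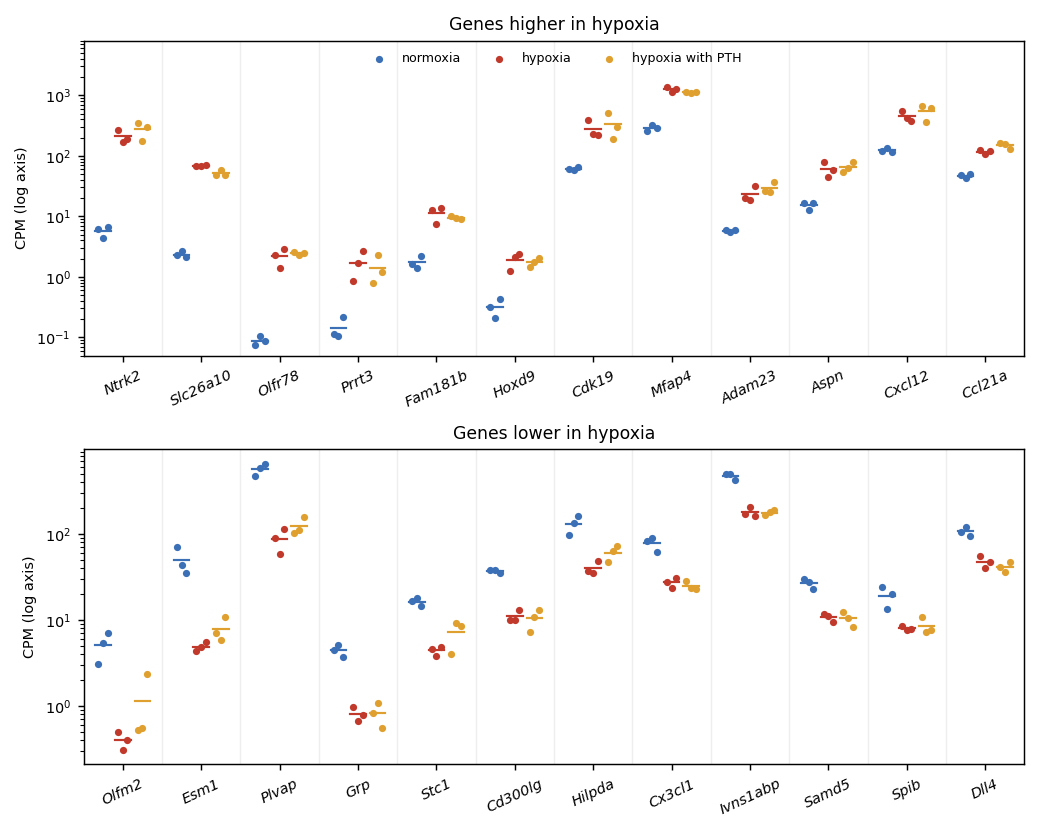
CPM of 12 genes called higher (top) and 12 called lower (bottom) in hypoxia, in every library, on log axes, with normoxia in blue, hypoxia in red and hypoxia with PTH in yellow. Points are libraries and bars group means, and for all 24 genes the normoxia and hypoxia points do not overlap.

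Genes of the general capillary cell changed in both directions: 3 of the 15 listed fell, 1 rose, and the median was -0.10. Plvap encodes the protein of the diaphragms that close endothelial caveolae and fenestrae (chr8:71497765-71511752, minus strand). It stood at 469, 580.3 and 657 CPM in normoxia and 90.8, 58.6 and 114 CPM in hypoxia. Every hypoxia library was below every normoxia library, hypoxia 2 the lowest, with a log2 fold change of -2.70 (SE 0.26, adjusted p by edgeR 0.0029). Cd300lg, a capillary surface molecule that binds lymphocytes, fell from 37.7, 38 and 35.2 CPM to 10.0, 9.83 and 13 CPM, a log2 fold change of -1.75 (SE 0.19, adjusted p by edgeR 0.0045). Cxcl12, the chemokine that signals through CXCR4 (chr6:117168535-117181367, plus strand), rose. It stood at 119, 137 and 116 CPM in normoxia and 549, 422 and 379 CPM in hypoxia, highest in hypoxia 1, with a log2 fold change of 1.86 (SE 0.22, adjusted p by edgeR 0.006). The semaphorin gene Sema3c did not pass, with 219, 287 and 472 CPM in normoxia and 893, 789 and 768 CPM in hypoxia and a log2 fold change of 1.32 (adjusted p = 0.055), nor did Bmp6, a ligand of the BMP receptors, at -0.68 (adjusted p = 0.062).

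Of the 13 aerocyte genes, 1 rose and 2 fell. Emcn, an endothelial surface sialomucin, stood at 44.6, 47.4 and 40.4 CPM in normoxia and 93.1, 81.6 and 88.6 CPM in hypoxia, a log2 fold change of 0.99 (SE 0.13, adjusted p by edgeR 0.0069). Cyp4b1, a cytochrome P450 enzyme, fell from 902, 1074 and 1069 CPM to 518, 612 and 552 CPM, with a log2 fold change of -0.86 (SE 0.11, adjusted p by edgeR 0.0076). Ednrb, the endothelin receptor that on endothelium clears endothelin and releases nitric oxide, stood at 133, 153 and 141 CPM in normoxia and 103, 88.4 and 77.8 CPM in hypoxia. All hypoxia libraries were lower, with a log2 fold change of -0.66 (SE 0.10, adjusted p by edgeR 0.028). The defining aerocyte gene Car4, a membrane carbonic anhydrase, had overlapping groups and a log2 fold change of -0.34 (adjusted p = 0.41). The call of Ednrb was lost in 4 of the 9 fits that left out 1 library (adjusted p up to 0.11), and that of Cyp4b1 without hypoxia 1 (adjusted p up to 0.0501).

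Esm1, a proteoglycan secreted by endothelial tip cells and a target of VEGF signalling (chr13:113209659-113218098, plus strand), had the second lowest fold change. It stood at 70.7, 44 and 34.9 CPM in normoxia and 4.33, 4.87 and 5.46 CPM in hypoxia, normoxia 2 being the highest, with a log2 fold change of -3.35 (SE 0.30, adjusted p by edgeR 0.0021). Dll4, the Notch ligand of arterial and tip cells (chr2:119325784-119335962, plus strand), stood at 106, 120.2 and 95.5 CPM in normoxia and 55, 40.6 and 47.6 CPM in hypoxia. The fall was of similar size in all hypoxia libraries, with a log2 fold change of -1.17 (SE 0.14, adjusted p by edgeR 0.0049). No other of the 18 Notch pathway genes tested was called. Their median was -0.039, with the ligand gene Jag2 at 0.60 (adjusted p = 0.074), the target gene Hey2 at 0.88 (adjusted p = 0.11) and the mural cell receptor gene Notch3 at 0.47 (adjusted p = 0.19). Samd5, a gene named for its SAM domain, fell from 30.1, 27.8 and 23.2 CPM to 11.8, 11.1 and 9.49 CPM, with a log2 fold change of -1.32 (SE 0.16, adjusted p by edgeR 0.0063).

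Arterial genes also changed in both directions, with 2 of 17 higher, Dll4 lower and a median of 0.054. Gja4 encodes connexin 37, a gap junction protein of arterial endothelium. It stood at 27.3, 31.7 and 30.3 CPM in normoxia and 93.6, 53 and 75.8 CPM in hypoxia, lowest in hypoxia 2, with a log2 fold change of 1.32 (SE 0.20, adjusted p by edgeR 0.028). Sox17, a transcription factor of arterial identity that is mutated in some patients with pulmonary arterial hypertension, stood at 74.1, 92.8 and 87 CPM in normoxia and 172, 128 and 145 CPM in hypoxia. All hypoxia libraries were higher, with a log2 fold change of 0.81 (SE 0.13, adjusted p by edgeR 0.028). Efnb2, the arterial ephrin, averaged 385 CPM in normoxia and 193 CPM in hypoxia, a log2 fold change of -1.0 (adjusted p = 0.067), and Nos3, the endothelial nitric oxide synthase, had one of 0.75 (adjusted p = 0.12). Gja4 and Sox17 each lost the call in 5 of the 9 fits that left out 1 library, with adjusted p up to 0.1 and 0.091.

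Several called genes that are known from endothelium in general also rose. Jam2, a junctional adhesion molecule, stood at 57.1, 65.4 and 74.1 CPM in normoxia and 123, 109 and 118 CPM in hypoxia, a log2 fold change of 0.83 (SE 0.11, adjusted p by edgeR 0.0076). Abcb1a, the drug efflux pump P-glycoprotein, stood at 58.9, 64.1 and 82.7 CPM in normoxia and 142, 149 and 143 CPM in hypoxia, a log2 fold change of 1.08 (SE 0.12, adjusted p by edgeR 0.0045). Cd34, a sialomucin of endothelium and fibroblasts, rose by 0.90 (SE 0.12, adjusted p by edgeR 0.0086) and its relative Podxl, podocalyxin, by 0.75 (SE 0.12, adjusted p by edgeR 0.028) on the log2 scale. In contrast, none of the 16 genes shared by all endothelium was called, 10 lay below 0 and the median was -0.13. Eng, endoglin, a TGF-beta and BMP co-receptor, stood at 648, 783 and 845 CPM in normoxia and 395, 377 and 501 CPM in hypoxia. Its groups did not overlap, but the log2 fold change of -0.84 (adjusted p = 0.16) did not pass. Venous genes also held no call, with 8 of 13 above 0, median 0.072. Among VEGF and angiopoietin genes, where none of 19 was called and the median was 0.23, Vegfc was at 13.3, 18.2 and 28.3 CPM in normoxia and 59, 40.8 and 48.3 CPM in hypoxia. Those groups did not overlap, with a log2 fold change of 1.31 (adjusted p = 0.085). Pgf, placental growth factor, was at 0.78 (adjusted p = 0.1) and the VEGF receptor gene Flt1 at -0.57 (adjusted p = 0.17). Calls were lost by Jam2 without normoxia 3 (adjusted p up to 0.052), Cd34 without normoxia 3 (adjusted p up to 0.066) and Podxl in 3 such fits (up to 0.095) in fits that left out 1 library.

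Lymphatic endothelium showed rises in 3 of 11 listed genes, with a median of 0.41. Ccl21a encodes the chemokine that draws dendritic and T cells into lymphatic vessels (chr4:42772860-42773993, minus strand). It stood at 48.6, 43 and 49.7 CPM in normoxia and 125, 106 and 121 CPM in hypoxia. No hypoxia library came near the normoxia range, and the log2 fold change was 1.32 (SE 0.10, adjusted p by edgeR 0.00071). The near-identical copies Ccl21b, Gm13304, Gm21541 and Gm10591 were called too, and reads may be split among them, so they count as 1 signal. Prox1, the transcription factor that sets lymphatic identity, stood at 3.34, 1.97 and 2.95 CPM in normoxia and 7.97, 7.87 and 8.29 CPM in hypoxia, a log2 fold change of 1.55 (SE 0.20, adjusted p by edgeR 0.0086). Mmrn1, the platelet and lymphatic protein multimerin, stood at 16.9, 16.6 and 24.7 CPM in normoxia and 38.7, 48.4 and 51.5 CPM in hypoxia, a log2 fold change of 1.25 (SE 0.22, adjusted p by edgeR 0.047) that lost its call in 6 of the 9 left-out fits (adjusted p up to 0.18). Lyve1, a hyaluronan receptor carried by lymphatic vessels and by a class of lung macrophages, lay on the other side. Its values were 604, 832 and 1022 CPM in normoxia and 171, 161 and 171 CPM in hypoxia, and the log2 fold change of -2.29 (adjusted p = 0.053) did not pass. The receptor gene Flt4 was at -0.49 (adjusted p = 0.2) and the podoplanin gene Pdpn at 0.41 (adjusted p = 0.18).

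**Figure D4:**
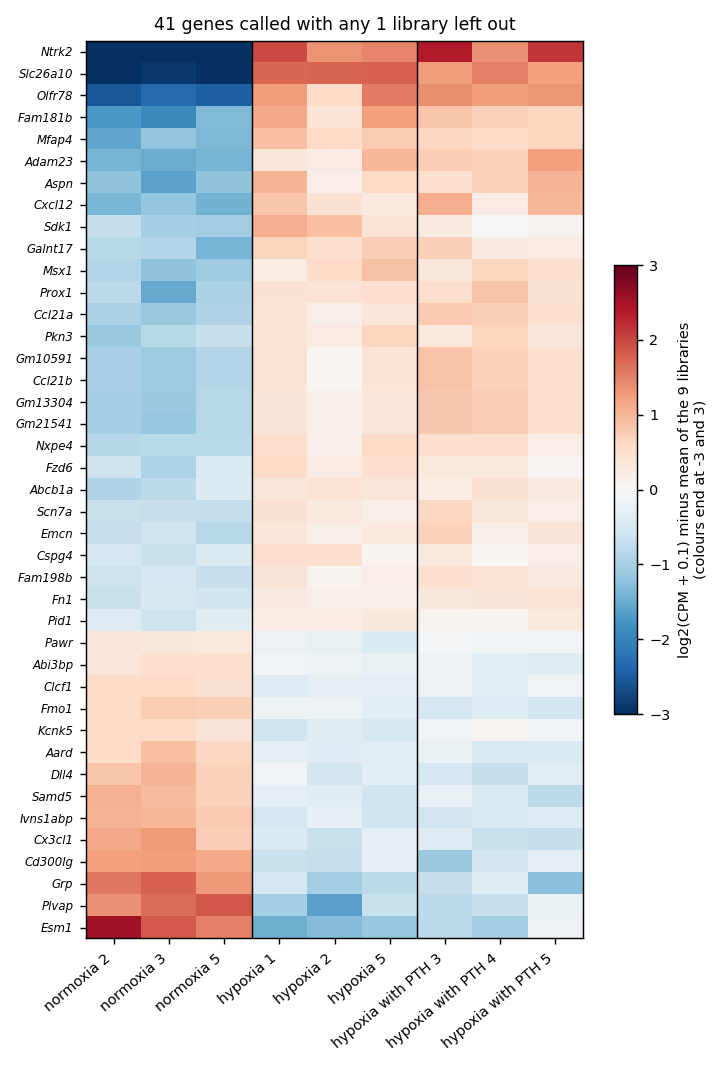
The 41 genes that were called whichever of the 9 libraries was left out (27 higher, 14 lower), ordered by fold change, in all 9 libraries. Colours give log2(CPM + 0.1) minus the mean of the 9 libraries, ending at -3 and 3, and within each of these genes the 3 normoxia libraries lie on the opposite side from the 3 hypoxia libraries.

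Most pericyte genes had fold changes above 0. Of 14 listed, 3 rose, none fell, 12 lay above 0 and the median was 0.39. For 8 the hypoxia libraries lay wholly above the normoxia libraries, against 8.56% of all genes. Cspg4, the NG2 proteoglycan of pericytes, stood at 31, 28.3 and 33.3 CPM in normoxia and 63.9, 63 and 48.8 CPM in hypoxia, a log2 fold change of 0.92 (SE 0.12, adjusted p by edgeR 0.0069). Higd1b, a mitochondrial protein gene that marks lung pericytes, stood at 27.4, 34.1 and 36.8 CPM in normoxia and 62.1, 54.2 and 53.5 CPM in hypoxia, a log2 fold change of 0.79 (SE 0.11, adjusted p by edgeR 0.012). Ndufa4l2, which lowers mitochondrial complex I activity and is a known target of hypoxia-inducible factors, stood at 26.5, 32.1 and 31.1 CPM in normoxia and 48.2, 45.1 and 52 CPM in hypoxia. The groups did not overlap, and the log2 fold change was 0.70 (SE 0.11, adjusted p by edgeR 0.032). Rgs5, a regulator of G protein signalling in mural cells, was at 13.8, 11.9 and 14 CPM in normoxia and 25.2, 35.5 and 41.5 CPM in hypoxia and did not pass, at 1.36 (adjusted p = 0.14), nor did the mural cell receptor Pdgfrb at 0.31 (adjusted p = 0.27). Higd1b lost its call in 2 and Ndufa4l2 in 6 of the 9 left-out fits, with adjusted p up to 0.059 and 0.12.

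Smooth muscle genes held no call among 20, and the median was 0.10. The leiomodin gene Lmod1 was at 0.74 (adjusted p = 0.09) and the caldesmon gene Cald1 at 0.31 (adjusted p = 0.13). Ion channels of the vessel wall and airway gave no call among 29, with 19 above 0 and a median of 0.11. Kcna5, the oxygen-sensitive potassium channel of pulmonary artery smooth muscle, was at 1.09, 0.552 and 0.607 CPM in normoxia and 1.39, 2.03 and 2.9 CPM in hypoxia. Its groups did not overlap, with a log2 fold change of 1.49 (adjusted p = 0.12), and for Trpv4, a calcium-permeable mechanosensitive channel, it was 1.40 (adjusted p = 0.11). Kcnk3, a background potassium channel mutated in some patients with pulmonary arterial hypertension, was at 0.40 (adjusted p = 0.14). A related channel outside that list, Kcnk5, fell from 15.4, 15.2 and 13.5 CPM to 6.75, 7.98 and 7.3 CPM, a log2 fold change of -1.0 (SE 0.12, adjusted p by edgeR 0.0049).

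Among vasoactive genes, Ednrb was the only one of 17 endothelin, angiotensin and serotonin pathway genes called (list median 0.086). Edn1, the gene of endothelin-1, had overlapping groups with 35.4, 45.9 and 82.7 CPM in normoxia and 78, 61 and 144 CPM in hypoxia and a log2 fold change of 0.79 (adjusted p = 0.61), and the endothelin-converting enzyme Ece1 was at -0.65 (adjusted p = 0.097). None of the 24 nitric oxide, cGMP and prostacyclin genes was called, with a median of 0.012. The prostacyclin receptor gene Ptgir was at 0.81 (adjusted p = 0.22), and Npr3, the natriuretic peptide clearance receptor, at -1.79 (adjusted p = 0.22). No growth factor list held a call. The BMP list had 19 of 31 above 0, median 0.064, the TGF-beta and activin list 13 of 21 above 0, median 0.036, the Wnt list 15 of 30 above 0, median 0.019, the IGF list 7 of 14 above 0, median 0.051 and the FGF and PDGF list 12 of 21 above 0, median 0.17. Bmpr2, the receptor most often mutated in heritable pulmonary arterial hypertension, stood at 690.2, 807 and 908 CPM in normoxia and 681, 678 and 606 CPM in hypoxia, which did not overlap and did not pass, at -0.29 (adjusted p = 0.35). Igfbp2, an IGF-binding protein of alveolar type 1 cells, was at 0.99 (adjusted p = 0.06) and the platelet-derived growth factor gene Pdgfd at 0.67 (adjusted p = 0.085). Fzd6, a frizzled receptor that was outside those lists, rose from 38, 30.5 and 42.3 CPM to 86.8, 69.2 and 82.3 CPM, a log2 fold change of 1.10 (SE 0.13, adjusted p by edgeR 0.006).

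Most matrix genes had fold changes above 0, and 4 of the elastic fibre, matricellular and collagen genes passed the test, all higher. Mfap4, a glycoprotein of elastic microfibrils (chr11:61485431-61488900, plus strand), stood at 254, 329 and 291 CPM in normoxia and 1387, 1123 and 1258 CPM in hypoxia. Each hypoxia library lay far above the normoxia range, a log2 fold change of 2.11 (SE 0.12, adjusted p by edgeR 6.5e-05). Fbln2, a fibulin of elastic fibres, stood at 15.8, 12.1 and 12.1 CPM in normoxia and 30.3, 32.2 and 40.4 CPM in hypoxia, a log2 fold change of 1.36 (SE 0.21, adjusted p by edgeR 0.026). These were the 2 called of 18 elastic fibre genes, of which 15 lay above 0, with a median of 0.45. The fibre components Fbln5 and Mfap5 were at 0.54 (adjusted p = 0.16) and 0.66 (adjusted p = 0.1), and the cross-linking enzyme Loxl3 at 0.43 (adjusted p = 0.083).

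Aspn, asporin, a small leucine-rich proteoglycan, stood at 16.8, 12.7 and 16.8 CPM in normoxia and 77.9, 44.2 and 59 CPM in hypoxia, a log2 fold change of 1.97 (SE 0.22, adjusted p by edgeR 0.0048). Fn1, fibronectin, stood at 264, 301 and 278 CPM in normoxia and 504, 463 and 478 CPM in hypoxia, a log2 fold change of 0.78 (SE 0.079, adjusted p by edgeR 0.0029). They were the 2 called of 26 matricellular proteins and proteoglycans, with 18 above 0 and a median of 0.38. Thbs1, thrombospondin, went the other way without passing, at 472, 446 and 595 CPM in normoxia and 83.5, 189 and 167 CPM in hypoxia and a log2 fold change of -1.78 (adjusted p = 0.14). The proteoglycan genes Bgn and Hspg2 were at 0.73 (adjusted p = 0.062) and 0.42 (adjusted p = 0.083). None of 26 collagen genes was called, but 24 lay above 0 and the median was 0.34. Hypoxia libraries lay wholly above normoxia for 7 and wholly below for 1, against 8.56% and 8.57% of all genes. Col18a1, a basement membrane collagen, was at 52.3, 52.9 and 45.7 CPM in normoxia and 81.4, 66 and 91.4 CPM in hypoxia, with a log2 fold change of 0.66 (adjusted p = 0.07), and Col1a1, the main fibrillar collagen, at 193, 189 and 164 CPM in normoxia and 307, 183 and 389.8 CPM in hypoxia. The Col1a1 groups overlapped, and its log2 fold change was 0.69 (adjusted p = 0.24).

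The fibroblast list had 14 of 18 above 0, a median of 0.22 and Cd34 as its called member. Among 23 matrix proteases and inhibitors only Adam23 was called, at a median of 0.15, and the gelatinase gene Mmp2 was at 1.15 (adjusted p = 0.085). Further called genes of the matrix and its signals were Serpine2, protease nexin, at 0.68 (SE 0.11, adjusted p by edgeR 0.035), Spon1, a spondin, at 0.57 (SE 0.092, adjusted p by edgeR 0.032), Mxra8 at 0.63 (SE 0.09, adjusted p by edgeR 0.014) and Pmepa1, a feedback inhibitor of TGF-beta signalling, at 0.54 (SE 0.097, adjusted p by edgeR 0.047). Abi3bp, a matrix protein that limits cell growth, fell from 85.8, 94.3 and 95.1 CPM to 61.4, 60.6 and 56.9 CPM, a log2 fold change of -0.62 (SE 0.078, adjusted p by edgeR 0.0069). Fbln2 lost its call in 5 of the 9 left-out fits (adjusted p up to 0.12). Calls were also lost by Serpine2 in 7 such fits (up to 0.14), Spon1 in 5 such fits (up to 0.13), Mxra8 in 5 such fits (up to 0.068) and Pmepa1 in 7 such fits (up to 0.18), while Mfap4, Aspn, Fn1, Adam23 and Abi3bp kept theirs.

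**Figure D5:**
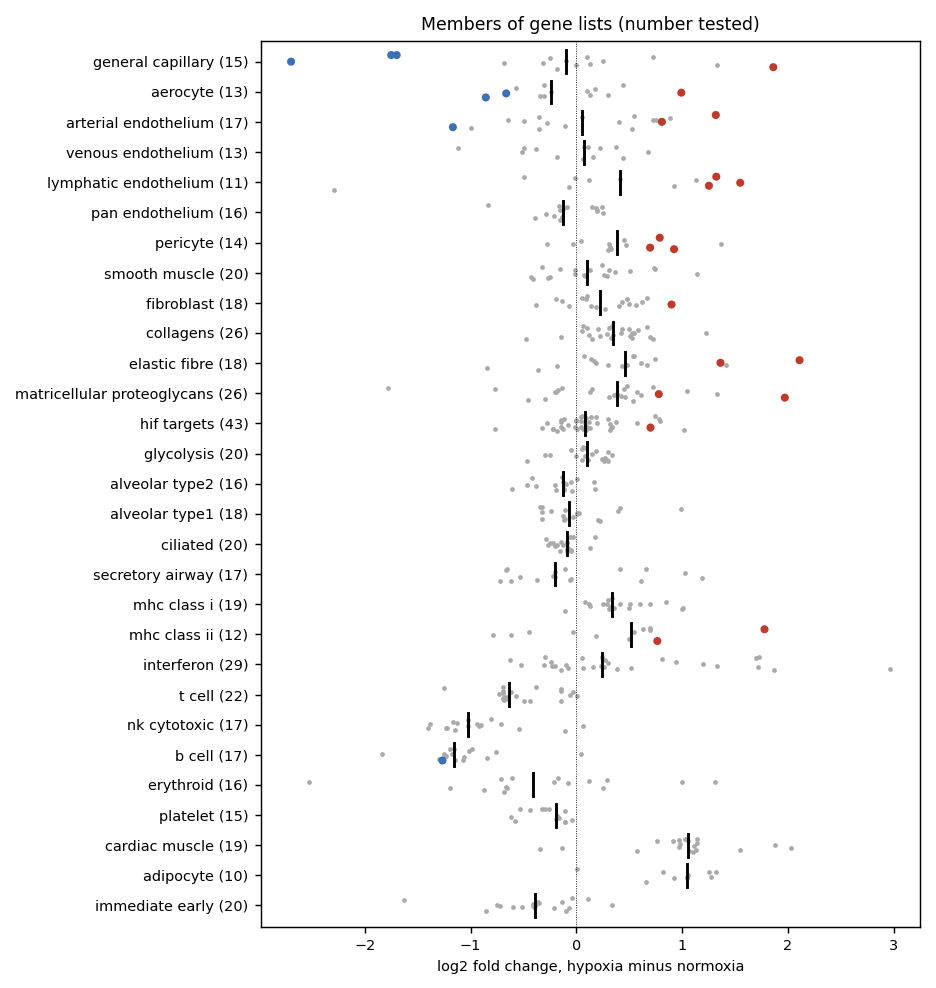
Log2 fold change, hypoxia minus normoxia (x axis), of each tested member of 29 gene lists (y axis, number tested in brackets), with members called higher in red, called lower in blue, others in grey, and a black bar at the list median. The elastic fibre, matricellular, collagen, pericyte and lymphatic lists have medians between 0.34 and 0.45, the lymphocyte lists have negative medians, and the heart muscle and fat lists, with no called member, have medians above 1.

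Of the listed oxygen-regulated genes, 1 passed the test after 3 weeks of hypoxia, where 0.57% of all genes tested did. Of 43 oxygen-regulated genes and members of the hypoxia-inducible factor pathway, Ndufa4l2 was called higher and none lower, 28 lay above 0 and the median was 0.084. For 11 the hypoxia libraries lay wholly above the normoxia libraries and for 0 wholly below, against 8.56% and 8.57% of all genes. At an unadjusted p under 0.05 by edgeR, 10 were higher and 0 lower, against 1266 and 1055 of all 19640 genes tested. Vegfa, the vascular growth factor, stood at 878, 943 and 844 CPM in normoxia and 1010.0, 844 and 829 CPM in hypoxia, with overlapping groups and a log2 fold change of 0.0099 (adjusted p = 0.99). Slc2a1, the glucose transporter, was at 0.045 (adjusted p = 0.96), Car9, the carbonic anhydrase used as a hypoxia marker, at -0.13 (adjusted p = 0.94) and Egln3, an oxygen-sensing prolyl hydroxylase, at -0.33 (adjusted p = 0.84). Bnip3, a mitophagy receptor, stood at 80.5, 89.9 and 106 CPM in normoxia and 115, 107 and 116 CPM in hypoxia. Its hypoxia libraries were all higher, but the log2 fold change of 0.30 (adjusted p = 0.25) did not pass. The genes of the factors themselves, Epas1 and Hif1a, were at -0.22 (adjusted p = 0.68) and 0.043 (adjusted p = 0.9). Glycolysis held no call among 20 genes, with 16 above 0 and a median of 0.099, Gapdh at 0.30 (adjusted p = 0.14) and Pkm at 0.26 (adjusted p = 0.2). Nuclear genes of oxidative phosphorylation also held none, with 26 of 27 above 0, median 0.082. Ndufa4l2 overlaps Shmt2, whose reads may be shared, as for Slc26a10.

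By contrast, 2 genes that low oxygen is known to induce in many cell types fell. Hilpda, a lipid droplet protein that blocks fat breakdown (chr6:29272488-29275446, plus strand), stood at 96.8, 133 and 163 CPM in normoxia and 37.4, 35.6 and 48.1 CPM in hypoxia. Hypoxia libraries were all lower, with a log2 fold change of -1.70 (SE 0.22, adjusted p by edgeR 0.0086). Stc1, the secreted glycoprotein stanniocalcin, stood at 16.4, 17.7 and 14.6 CPM in normoxia and 4.53, 3.82 and 4.89 CPM in hypoxia, a log2 fold change of -1.88 (SE 0.27, adjusted p by edgeR 0.016). Hilpda belonged to the general capillary list, and Stc1 to no list, so neither entered the count of oxygen-regulated genes. Hilpda lost its call without hypoxia 1 (adjusted p = 0.055) and Stc1 in 4 of the 9 left-out fits (up to 0.083).

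Hypoxia response elements hold the core motif ACGTG or GCGTG. The windows below show it for 3 of the rises and 3 of the falls described above that have a RefSeq promoter entry, chosen after their values were seen. They run from 250 bases before to 50 bases after the gene start, on the gene's strand, in build GRCm38.p6, whose coordinates are those of mm10. Capitals mark a match to either motif on either strand.
Ntrk2, chr13:58806319-58806618, plus strand: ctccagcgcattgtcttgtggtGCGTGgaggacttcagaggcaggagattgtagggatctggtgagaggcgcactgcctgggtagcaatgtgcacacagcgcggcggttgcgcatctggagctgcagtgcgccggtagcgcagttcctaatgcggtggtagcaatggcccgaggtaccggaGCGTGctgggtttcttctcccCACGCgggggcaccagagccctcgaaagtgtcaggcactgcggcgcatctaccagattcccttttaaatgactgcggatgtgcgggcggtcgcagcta
Slc26a10, chr10:127180533-127180832, minus strand: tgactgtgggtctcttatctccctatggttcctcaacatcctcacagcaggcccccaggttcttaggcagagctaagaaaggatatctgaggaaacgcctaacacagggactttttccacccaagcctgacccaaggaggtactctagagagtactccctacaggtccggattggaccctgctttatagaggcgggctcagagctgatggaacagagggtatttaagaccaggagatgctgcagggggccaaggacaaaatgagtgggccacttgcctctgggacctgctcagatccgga
Cxcl12, chr6:117168285-117168584, plus strand: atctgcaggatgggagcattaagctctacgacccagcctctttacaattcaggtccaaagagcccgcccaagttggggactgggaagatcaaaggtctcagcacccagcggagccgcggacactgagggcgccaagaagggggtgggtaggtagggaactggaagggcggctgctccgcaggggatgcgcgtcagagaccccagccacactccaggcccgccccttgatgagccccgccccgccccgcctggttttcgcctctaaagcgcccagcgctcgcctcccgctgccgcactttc
Esm1, chr13:113209409-113209708, plus strand: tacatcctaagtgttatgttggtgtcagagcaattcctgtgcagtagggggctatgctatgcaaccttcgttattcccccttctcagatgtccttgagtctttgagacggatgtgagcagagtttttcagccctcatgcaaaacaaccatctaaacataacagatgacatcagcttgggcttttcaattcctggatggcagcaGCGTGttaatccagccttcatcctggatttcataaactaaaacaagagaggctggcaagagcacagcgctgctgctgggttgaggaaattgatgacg
Hilpda, chr6:29272238-29272537, plus strand: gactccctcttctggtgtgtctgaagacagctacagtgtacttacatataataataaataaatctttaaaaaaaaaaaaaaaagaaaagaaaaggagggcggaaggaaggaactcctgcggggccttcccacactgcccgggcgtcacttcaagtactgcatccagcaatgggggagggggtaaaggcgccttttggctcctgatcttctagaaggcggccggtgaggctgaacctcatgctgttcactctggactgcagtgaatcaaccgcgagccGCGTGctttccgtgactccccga
Dll4, chr2:119325534-119325833, plus strand: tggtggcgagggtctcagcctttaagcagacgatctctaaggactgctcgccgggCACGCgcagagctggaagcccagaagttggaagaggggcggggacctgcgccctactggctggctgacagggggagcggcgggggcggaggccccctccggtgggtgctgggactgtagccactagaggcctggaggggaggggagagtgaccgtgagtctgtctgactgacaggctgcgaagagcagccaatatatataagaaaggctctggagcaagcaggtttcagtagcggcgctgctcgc
The Ntrk2 window held 3 matches, those of Esm1, Hilpda and Dll4 held 1 each, and those of Slc26a10 and Cxcl12 held 0. Some matches to ACGTG lie inside an E-box, CACGTG, but none of these windows held that sequence. A match was common: 60.1% of the 11738 tested genes with an entry within 1000 bases of their start held one. The share was 46.7% of 45 genes called higher and 54.5% of 22 called lower. It was 79.3% of 29 listed oxygen-regulated genes and members of the hypoxia-inducible factor pathway. A match is a description of the letters in this window only. Mfap4, Plvap, Stc1, Ndufa4l2, Olfr78, Cdk19 and Sox17 have no entry within 1000 bases of their start.

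Smaller rises included genes that were brought together here after their values were seen. Scn7a, a sodium-sensing channel protein, stood at 249.9, 245 and 239 CPM in normoxia and 543, 484 and 442 CPM in hypoxia, a log2 fold change of 1.0 (SE 0.12, adjusted p by edgeR 0.0049), and was the 1 gene called of 14 nerve and glia genes, whose median was 0.29. On the log2 scale Scn3b, a sodium channel beta subunit, rose by 1.29 (SE 0.21, adjusted p by edgeR 0.034) and Cabp1, a calcium sensor of neurons, by 1.82 (SE 0.31, adjusted p by edgeR 0.041). Cntn1, an axonal adhesion protein, stood at 1.33, 1.57 and 1.69 CPM in normoxia and 3.71, 5.05 and 3.72 CPM in hypoxia, a log2 fold change of 1.44 (SE 0.21, adjusted p by edgeR 0.017). Gap43, a protein of growing axons, rose by 1.17 (SE 0.19, adjusted p by edgeR 0.032), Epha4, an ephrin receptor, by 1.24 (SE 0.22, adjusted p by edgeR 0.0498), and Colq, the collagen tail that anchors acetylcholinesterase, by 1.53 (SE 0.26, adjusted p by edgeR 0.047). Sdk1, an adhesion protein, stood at 3.45, 2.8 and 2.73 CPM in normoxia and 12.2, 10.8 and 7.63 CPM in hypoxia, a log2 fold change of 1.77 (SE 0.20, adjusted p by edgeR 0.0045). In the left-out fits calls were lost by Scn3b in 6 such fits (up to 0.14), Cabp1 in 7 such fits (up to 0.15), Cntn1 in 4 such fits (up to 0.084), Gap43 in 6 such fits (up to 0.1), Epha4 in 6 such fits (up to 0.17) and Colq in 7 such fits (up to 0.16).

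Transcription factors and imprinted RNAs were among the called genes as well. Msx1, a homeobox factor of limb and facial mesenchyme, stood at 3.08, 2.43 and 2.69 CPM in normoxia and 6.8, 8.68 and 10.7 CPM in hypoxia, a log2 fold change of 1.68 (SE 0.19, adjusted p by edgeR 0.0047). Etv1, an ETS factor, rose by 0.50 (SE 0.081, adjusted p by edgeR 0.032) on the log2 scale, a call lost in 6 of the 9 left-out fits (adjusted p up to 0.1). Of 23 transcription factors of lung development only Sox17 was called, with a median of -0.051. Meg3 and Rian, imprinted noncoding RNAs of the same chromosome 12 cluster, both rose, by 0.81 (SE 0.13, adjusted p by edgeR 0.033) and 0.70 (SE 0.13, adjusted p by edgeR 0.047). Their calls were lost in 4 and 8 of the 9 left-out fits (adjusted p up to 0.15 and 0.18). Meg3 stood at 26.8, 22.5 and 23.1 CPM in normoxia and 43.3, 47.7 and 35.5 CPM in hypoxia, without overlap between the groups.

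The lists of airway and alveolar epithelial genes held no call. With 0.57% of all genes tested called, lists of this size can hold none by that share alone. None of 16 alveolar type 2 genes was called, but 13 lay below 0 and the median was -0.12. The collectin gene Sftpd was at 843, 958 and 949 CPM in normoxia and 621, 659.9 and 712 CPM in hypoxia, without overlap and with a log2 fold change of -0.46 (adjusted p = 0.12). Sftpa1 was at -0.38 (adjusted p = 0.13) and Il33, an alarmin, at -0.61 (adjusted p = 0.098). Alveolar type 1 genes had 8 of 18 above 0, median -0.068, ciliated cell genes 2 of 20 above 0, median -0.09, and secretory airway genes 5 of 17 above 0, median -0.20, all with no call, and the ciliated genes spanned only -0.29 to 0.17. Grp, the gene of gastrin-releasing peptide, a neuroendocrine hormone, fell. It stood at 4.45, 5.13 and 3.69 CPM in normoxia and 0.965, 0.656 and 0.785 CPM in hypoxia, a log2 fold change of -2.46 (SE 0.29, adjusted p by edgeR 0.0049). Of 12 mesothelial genes, Upk1b, a uroplakin, rose by 0.49 (SE 0.08, adjusted p by edgeR 0.033), at a list median of 0.14; that call was lost in 5 of the 9 left-out fits (adjusted p up to 0.15).

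Xenobiotic enzymes gave 2 calls, both lower, among 16 cytochrome P450 and flavin monooxygenase genes, whose median was -0.20. Fmo1, which oxidises nitrogen- and sulfur-containing compounds, stood at 572, 648 and 623 CPM in normoxia and 343, 344 and 300.4 CPM in hypoxia, a log2 fold change of -0.90 (SE 0.09, adjusted p by edgeR 0.0027), and Cyp4b1 was described above. Ass1, which makes the precursor of arginine, stood at 23.9, 26.5 and 22.7 CPM in normoxia and 46.4, 45.3 and 33.4 CPM in hypoxia, a log2 fold change of 0.77 (SE 0.14, adjusted p by edgeR 0.046) lost in 7 of the 9 left-out fits (adjusted p up to 0.17). Ak3, a mitochondrial nucleotide kinase, rose by 0.54 (SE 0.07, adjusted p by edgeR 0.0082) and Slc7a10, a carrier of small neutral amino acids, by 1.08 (SE 0.18, adjusted p by edgeR 0.035). In fits that left out 1 library, calls were lost by Ak3 without normoxia 3 (adjusted p up to 0.066) and Slc7a10 in 7 such fits (up to 0.14). Sterol and fatty acid synthesis had 13 of 20 above 0, median 0.12, iron and haem 10 of 17 above 0, median 0.026, and the heat shock and unfolded protein response 7 of 20 above 0, median -0.072, with no call.

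Ivns1abp, an actin- and splicing-linked protein that binds an influenza protein, fell in all hypoxia libraries. It stood at 504, 494 and 422 CPM in normoxia and 170.0, 208 and 162 CPM in hypoxia, a log2 fold change of -1.40 (SE 0.12, adjusted p by edgeR 0.001). Olfm2, the secreted protein olfactomedin 2, had the lowest fold change of any called gene and low counts. It stood at 3.08, 5.32 and 7.0 CPM in normoxia and 0.495, 0.306 and 0.402 CPM in hypoxia, a log2 fold change of -3.67 (SE 0.61, adjusted p by edgeR 0.035) whose call was lost in 5 of the 9 left-out fits (adjusted p up to 0.14). Clcf1, a cytokine of the interleukin-6 family, fell as well, with a log2 fold change of -0.84 (SE 0.088, adjusted p by edgeR 0.0032), as did Aard, with -1.05 (SE 0.12, adjusted p by edgeR 0.0049), and Pawr, a pro-apoptotic protein, with -0.60 (SE 0.077, adjusted p by edgeR 0.0076).

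Other called genes are given by their log2 fold changes. Galnt17, a glycosyltransferase, rose by 1.70 (SE 0.22, adjusted p by edgeR 0.0083), Zbtb7c, a zinc finger protein, by 1.62 (SE 0.27, adjusted p by edgeR 0.035), and Nxpe4 by 1.26 (SE 0.12, adjusted p by edgeR 0.0021). Fam198b rose by 0.84 (SE 0.094, adjusted p by edgeR 0.0045), Pid1, which dampens insulin signalling, by 0.73 (SE 0.09, adjusted p by edgeR 0.0065), and Scube2, a carrier of hedgehog ligands, by 0.97 (SE 0.17, adjusted p by edgeR 0.039). Rdx, which ties actin to the cell membrane, rose by 0.63 (SE 0.099, adjusted p by edgeR 0.028), Atp1b2, a sodium pump subunit, by 0.81 (SE 0.12, adjusted p by edgeR 0.015), and Mfge8, which bridges dying cells to phagocytes, by 0.48 (SE 0.081, adjusted p by edgeR 0.034). Among genes that fell, Stxbp6, a syntaxin-binding protein, was at -0.91 (SE 0.15, adjusted p by edgeR 0.033), Plcb2, a phospholipase C, at -0.74 (SE 0.12, adjusted p by edgeR 0.032), and Dusp16, a phosphatase of stress kinases, at -0.66 (SE 0.11, adjusted p by edgeR 0.031). Gng2, a G protein subunit, was at -0.61 (SE 0.10, adjusted p by edgeR 0.034) and Gmfg, an actin regulator of blood cells, at -0.56 (SE 0.09, adjusted p by edgeR 0.028). Among these, Fam198b, Pid1, Nxpe4 and Galnt17 kept their call whichever library was left out. On the deposited log2 TPM Galnt17 lost it, and its lowest log2 fold change over all settings was 0.58. Calls were lost with 1 library left out, at the adjusted p given in brackets, by Zbtb7c in 5 such fits (up to 0.13), Scube2 in 6 such fits (up to 0.15), Rdx in 4 such fits (up to 0.12), Atp1b2 in 4 such fits (up to 0.083) and Mfge8 in 7 such fits (up to 0.16) among the rises. They were lost by Stxbp6 in 5 such fits (up to 0.14), Plcb2 in 6 such fits (up to 0.14), Dusp16 in 5 such fits (up to 0.13), Gng2 in 7 such fits (up to 0.16) and Gmfg in 5 such fits (up to 0.13) among the falls, and Gmfg overlaps Samd4b.

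Most lymphocyte genes had fold changes below 0, and 1 of the listed genes passed the test. Spib, a transcription factor of B cells and plasmacytoid dendritic cells, stood at 24.3, 13.4 and 19.9 CPM in normoxia and 8.44, 7.65 and 7.83 CPM in hypoxia. All normoxia libraries were higher, and the log2 fold change was -1.27 (SE 0.22, adjusted p by edgeR 0.042), lost in 6 of the 9 left-out fits (adjusted p up to 0.15). It was the called member of 17 B cell genes, of which 16 lay below 0, with a median of -1.16. The B cell receptor component Cd79b averaged 30.6 ± 10.3 CPM in normoxia and 14.6 ± 2.71 CPM in hypoxia, with a log2 fold change of -1.07 (adjusted p = 0.11), and the chemokine receptor gene Cxcr5 was at -1.84 (adjusted p = 0.099). Natural killer and cytotoxic genes had 16 of 17 below 0 and a median of -1.02, T cell genes 21 of 22 and -0.63, and plasma cell genes 16 of 17 and -0.84, all with no call. Hypoxia libraries lay wholly below normoxia for 15 B cell, 14 natural killer and cytotoxic, 11 T cell and 6 plasma cell genes. They lay wholly above for 0 in each list, against 8.57% below and 8.56% above over all genes. Per library, the mean centred level of the B cell genes was 1.19, 0.35 and 0.50 in normoxia and -0.22, -0.74 and -0.17 in hypoxia, and that of the T cell genes 0.49, 0.42 and 0.16 and 0.051, -0.40 and -0.16. The groups did not overlap for either. Ptpn22, a phosphatase of lymphocyte receptor signalling, was among the called falls, at -0.98 (SE 0.14, adjusted p by edgeR 0.017), lost in 4 of the 9 left-out fits (up to 0.083).

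Most antigen presentation genes had fold changes above 0. Ciita, the master regulator of MHC class II genes, stood at 11.5, 9.46 and 9.28 CPM in normoxia and 39.9, 30.6 and 33.3 CPM in hypoxia, a log2 fold change of 1.78 (SE 0.29, adjusted p by edgeR 0.038). H2-DMb1, a chaperone that loads peptide onto class II molecules, stood at 44, 33.6 and 36.4 CPM in normoxia and 73, 51.6 and 69.2 CPM in hypoxia, a log2 fold change of 0.76 (SE 0.14, adjusted p by edgeR 0.047). They were the 2 called of 12 class II genes, of which 8 lay above 0 and 4 below, with a median of 0.52. H2-Ab1 was at 0.63 (adjusted p = 0.11) and Cd74, the invariant chain, at 0.69 (adjusted p = 0.14). H2-Oa, another class II gene, went the other way, at -0.79 (adjusted p by edgeR 0.26), with every hypoxia library below every normoxia library. Class I genes had 18 of 19 above 0, median 0.34 and no call, with the peptide transporter gene Tap1 at 1.0 (adjusted p = 0.081). Among 29 interferon-induced genes none was called and the median was 0.24. The guanylate-binding protein gene Gbp4 reached 26.6, 21 and 34.3 CPM in normoxia and 180.0, 158 and 302 CPM in hypoxia. The groups did not overlap, but the log2 fold change of 2.97 had an SE of 0.57 and an adjusted p of 0.084; the PTH libraries, which share in the estimate of spread, stood at 162, 75.1 and 33.9 CPM. Wars, a tRNA synthetase that interferon gamma induces, stood at 118, 125 and 145 CPM in normoxia and 245, 218 and 367 CPM in hypoxia, a log2 fold change of 1.09 (SE 0.17, adjusted p by edgeR 0.032). The mean interferon level of the libraries was -0.30, -0.34 and 0.021 in normoxia and 0.18, -0.053 and 0.61 in hypoxia, so that the groups overlapped. Ciita lost its call in 6, H2-DMb1 in 7 and Wars in 4 of the 9 left-out fits, with adjusted p up to 0.16, 0.18 and 0.13. Ciita overlaps Dexi, and class I and guanylate-binding genes have near-identical relatives, so reads may be shared among them.

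Of 35 chemokines and receptors, Cxcl12 and Ccl21a rose and Cx3cl1 fell, at a median of -0.13. Cx3cl1, fractalkine, a membrane-bound chemokine of endothelium and neurons, stood at 82.2, 89.5 and 61.6 CPM in normoxia and 27.8, 23.5 and 30.4 CPM in hypoxia. Every hypoxia library was lower, with a log2 fold change of -1.51 (SE 0.15, adjusted p by edgeR 0.003). The chemokine genes Ccl5 and Ccl22 were at -1.08 (adjusted p = 0.089) and -1.16 (adjusted p = 0.094). Alveolar macrophage genes had 12 of 17 above 0, median 0.21, interstitial macrophage and monocyte genes 7 of 20 above 0, median -0.16, dendritic cell genes 6 of 16 above 0, median -0.11, granulocyte and mast cell genes 13 of 17 above 0, median 0.33, erythroid genes 5 of 16 above 0, median -0.41 and platelet genes 0 of 15 above 0, median -0.19, none with a call. The beta-globin gene Hbb-bs was at 1873, 2099.8 and 1726 CPM in normoxia and 1159, 1351 and 1034 CPM in hypoxia, which did not overlap, with a log2 fold change of -0.69 (adjusted p = 0.11). No list of blood and immune cells other than the B cell list held a called member.

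Genes of the cell cycle held no call among 32, though 26 lay above 0 and the median was 0.19. Cdc20, an activator of the anaphase complex, was at 2.44, 3.45 and 2.99 CPM in normoxia and 6.73, 4.72 and 6.48 CPM in hypoxia and a log2 fold change of 1.01 (adjusted p = 0.062), and the mitotic kinesin gene Kif20a at 1.03 (adjusted p = 0.14). Immediate early genes, which tissue handling can move, had 2 of 20 above 0, median -0.39 and no call, with library means of 0.28, 0.10 and 0.17 in normoxia and -1.12, 0.20 and -0.17 in hypoxia, lowest in hypoxia 1. The clock list had 11 of 19 above 0, median 0.062 and no call. Heart muscle genes had 17 of 19 above 0, median 1.06 and fat genes 10 of 10 above 0, median 1.04, again with no call, and the libraries differed within both groups. Of the 112 genes, 74 kept their call when the muscle and fat score entered the model, and 94 did when the clock score entered it. Among the genes named here, Epha4, Spib, Scube2, Cdk19, Rian, Ciita and H2-DMb1 lost their call with either score. Pmepa1, Olfm2 and Gap43 lost it with the clock score alone. With the muscle and fat score alone it was lost by Serpine2, Spon1, Etv1, Meg3, Mmrn1, Upk1b, Ass1, Slc7a10, Wars, Scn3b, Cabp1, Colq, Prrt3, Lrrc3b, Zbtb7c, Stxbp6, Plcb2, Dusp16, Gng2 and Gmfg. Pth1r, the receptor of parathyroid hormone, stood at 4.07, 4.13 and 3.23 CPM in normoxia and 4.13, 4.85 and 5.42 CPM in hypoxia, a log2 fold change of 0.33 (adjusted p = 0.49) that did not pass, and the list of PTH signalling genes had 10 of 15 above 0, median 0.11 and no call.

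In the 3 hypoxic libraries of mice given PTH, the leading genes stood as follows, beside the same normoxia libraries, which both comparisons share. Ntrk2 stood at 355, 175 and 298 CPM, Slc26a10 at 48.5, 57.9 and 47.9 CPM and Mfap4 at 1135, 1095 and 1155 CPM in replicates 3, 4 and 5. Each of these 9 values was above every normoxia library. Plvap stood at 104, 112 and 158 CPM, Esm1 at 7.04, 5.89 and 10.8 CPM and Hilpda at 47.1, 62.9 and 71.7 CPM, all below every normoxia library. Stc1 was at 4.04, 9.19 and 8.59 CPM, Dll4 at 41.3, 36.2 and 47.1 CPM and Ednrb at 77.2, 82.6 and 85 CPM. Their ranges lay below normoxia too. Ciita was at 33.2, 17.1 and 13.6 CPM, with replicates 4 and 5 nearer to normoxia than any library of hypoxia alone. In the PTH libraries the clock score was -2.52, -1.68 and -2.46, against 3.22, 2.92 and -2.09 in hypoxia alone. Their muscle and fat score was -0.27, -0.0062 and -3.01. Whether these differences bear on the values given here was not tested. Ass1, at 25, 29.7 and 23.6 CPM, and the adhesion receptor gene Pvr, at 54.5, 57.9 and 63.1 CPM against 59.1, 59.7 and 64.6 in normoxia and 34.8, 41.9 and 40.0 in hypoxia, overlapped the normoxia libraries.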

How the data were processed

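RNA from whole lung was sequenced as poly(A)-selected, strand-marked libraries. The authors trimmed reads with Trimmomatic 0.39 and aligned them with STAR 2.7.9a to mm10, per the submitters' processing notes; which counter, strand setting and annotation they used is not given in the sources used here. Per gene, 53342 in all, the deposited table holds expected counts (11.4% of those above 0 whole, and 88.8% of whole counts up to 20 even, so mates of a pair may have been counted one by one) and log2 TPM with a floor of 1 TPM, also by the authors. Symbols and coordinates are those of the table.

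Counts were rounded and tested with edgeR 4.0.16 in R 4.3.3: TMM scaling, filterByExpr (minimum count 10, minimum total 15), and the robust quasi-likelihood F test, with all 9 samples in 1 model (6 residual degrees of freedom). An adjusted p under 0.05 (Benjamini-Hochberg over 19640 genes) is a call. CPM use TMM library sizes. The median SE of a log2 fold change was 0.171, at a common biological coefficient of variation of 0.204. In counts simulated from these libraries with 200 changed genes, edgeR made 7 false calls of 141 and DESeq2 1.42.0 made 45 of 194. There edgeR called 58% of the genes changed 2-fold and 76% of those changed 4-fold. The simulation drew each gene independently, with edgeR's own estimates of spread and no muscle, fat or clock differences between libraries. Replicates of a group differed beyond sampling noise, so none was a duplicate.

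Samples were grouped by title. The comparison, the 61 gene lists and the rule for named genes were chosen with earlier results of these data known. The rule admits any called gene with a group mean of at least 1 CPM except predicted genes, all called members of a list with up to 6 more by p, set oxygen-regulated genes and the receptors, ligands and relatives of called genes. List scores per library are mean log2 CPM (prior count 2) centred over the 9 libraries. Lists are described by counts and medians, with no test. Alternatives used limma 3.58.1 and DESeq2; the 2 splits by muscle and fat score were added after seeing the data. Promoter windows come from RefSeq (GRCm38.p6).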

Additional observations from a re-analysis of the deposited data

How the results depend on the processing

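The number of genes called (112 in all, 81 higher and 31 lower) was within 1.5 times under DESeq2 size factors (108), upper quartile scaling (106), limma-voom (106), a filter of at least 1 CPM in 3 samples (118), limma on the deposited log2 TPM (108) and the clock (117) or muscle and fat score (82) as a covariate. It moved further under the DESeq2 test (791; 449 higher, 342 lower), which in the simulation made more false calls, without a filter (198; 131 and 67), at an adjusted p under 0.1 (324; 202 and 122), with a log2 fold change of at least 1 (60; 46 and 14), without both replicates 5 (64; 46 and 18), and among libraries with low (13; 12 and 1) or high muscle and fat scores (3; 2 and 1), 2 settings chosen after seeing the data that compare only 3 libraries. The simulation held no muscle, fat or clock differences between libraries, so it does not give the rate of false calls in these data. With only the 6 samples compared there were 137 calls, 50 of them lower. A similar total did not mean the same genes. Of the 112, 108 kept their call with DESeq2 size factors, 105 with upper quartile scaling and 98 with limma-voom. Only 85 kept it with the 6 samples alone, 82 on the deposited log2 TPM and 40 without both replicates 5. Leaving out 1 library gave 50 to 158 calls, 29 to 102 higher and 18 to 56 lower; the most came without PTH replicate 3. Replicate numbers are shared by some samples of different groups, but their residuals correlated at only -0.097 to 0.14, so the numbers were not taken as pairs. With the number as a replicate block 8 genes were called, 7 higher and 1 lower; 7 of the 8 were among the 112.

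Over all alternatives the called genes kept their direction, which fits on fewer libraries could hardly reverse, since their groups did not overlap. The call held in 1679 gene-by-setting results and was lost in 897. Of 122 other named genes some were called in 184 such results, and 17 results on oxygen-regulated genes, none of them called, changed sign. Vegfa did under upper quartile scaling (-0.00229), the replicate block (-0.088), the clock covariate (-0.0016) and among libraries with a high muscle and fat score (-0.070). Slc2a1 did under the muscle and fat covariate (-0.059) and among libraries with a low score (-0.28). Car9 did on the log2 TPM (0.0021) and among those with a low score (0.44), and Epas1 among those with a high score (0.0089). With 1 library left out Vegfa ran from -0.087 to 0.066, Slc2a1 from -0.092 to 0.20, Car9 from -0.46 to 0.11, Egln3 from -0.79 to 0.20 and Hif1a from -0.0027 to 0.11. The cause of these changes was not tested. Olfr78 and Prrt3, near 0.1 CPM in normoxia, rest on few counts there, with SEs of 0.36 and 0.58 against a median of 0.13 over the called genes.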

Other observations

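Genes of tissues beside the lung (oesophagus, thyroid, liver and skeletal muscle) passed the filter on low counts for 6 list members; 3 had log2 fold changes above 0, the median was -0.18 and none was called. The sex-linked list had 6 tested members, all below 0, with a median of -0.15 and no call.

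The first 3 principal components of the 6 libraries held 26.8%, 25.8% and 19.9% of the variance. On the first of them, normoxia 2, 3 and 5 lay at -10.1, 28 and 43.1, and hypoxia 1, 2 and 5 at 7.90, -30.9 and -38.0. The groups overlapped there, with hypoxia 1 between normoxia 2 and normoxia 3. On the second they did not overlap, with normoxia 2, 3 and 5 at 44, 7.86 and 8.84 and hypoxia 1, 2 and 5 at -53.8, 0.478 and -7.38.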
